A study of Mus musculus with 63 samples.

Results

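Cajal-Retzius cell genes were followed in sorted cells of the dorsal cerebral cortex of Ski knock-out mouse embryos. The 9 genes, matched by symbol in the deposited gene table of 23078 genes, were Reln, Trp73, Calb2, Lhx1, Lhx5, Ebf1, Ebf2, Ebf3 and Ndnf, and all 9 passed the low-value filter that left 15231 genes for testing. There were 63 RNA-seq libraries in 19 groups of 2 to 6. Newborn neurons (NBN, 13 libraries, E15.5 to E18.5) and basal progenitors (BP, 24 libraries, E12.5 to E18.5) were GFP-positive cells sorted from Tbr2::GFP embryos, and neural stem cells (NSC, 26 libraries, E11.5 to E18.5) were GFP-positive cells sorted from Hes5::GFP embryos. Every embryo carried the Ski knock-out on the C57Bl/6 background and was labelled female, so no library without the knock-out was compared. Tbr2 is the gene Eomes, and the reporters follow genes of basal progenitors (Tbr2) and of stem cells (Hes5). Each comparison of NSC with BP or NBN is also one between embryos of different reporter lines. Cell type and line cannot be told apart in it. How the sort told BP from NBN within the Tbr2::GFP line is not stated in the labels, and reporter protein can outlast its RNA. Values are in TPM, transcripts per 1000000, which allow levels to be compared between genes, and no read depth was given.

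Cajal-Retzius cells are among the earliest neurons of the cortex. They arise at the edges of the pallium, among them the cortical hem, the septum and the border between pallium and subpallium, spread beneath the pia in the marginal zone, and secrete reelin, which directs the placement of radially migrating neurons. Most of them die after birth. Several of the 9 genes are also used by other cells: Calb2 and Reln by classes of cortical interneurons, the Ebf genes and Lhx1 and Lhx5 by neurons of the diencephalon, midbrain and hindbrain, and Ebf1 by pericytes. The measurements are of bulk RNA, so fewer cells of a type and less RNA per cell cannot be told apart.

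The genes lie at separate places of the GRCm38 genome. In the GENCODE vM21 annotation Reln is at chr5:21884454-22344702 on the minus strand, Trp73 at chr4:154056253-154140208 on the minus strand, Calb2 at chr8:110137502-110168210 on the minus strand, Lhx1 at chr11:84518284-84525535 on the minus strand, and Lhx5 at chr5:120431699-120441223 on the plus strand. Ebf1 is at chr11:44617317-45008091 on the plus strand, Ebf2 at chr14:67233292-67430918 on the plus strand, Ebf3 at chr7:137193673-137314445 on the minus strand, and Ndnf at chr6:65671590-65712326 on the plus strand. Trp73 has 2 start regions in RefSeq (GRCm38.p6), and its TPM sums RNAs from both: RNAs from the upstream start code for forms with the transactivation domain, and RNAs from the internal start for the shorter forms found in Cajal-Retzius cells. The 250 bases before each of these starts are shown for that reason, and those before Lhx1 and Ebf3 because these were the pair whose courses over the group means were most alike. Capitals mark matches to CANNTG, the E-box bound by basic helix-loop-helix factors, in the Trp73 windows, and a match to CCCNNGGG, the core bound by EBF factors, in the Ebf3 window.
Trp73, upstream start, chr4:154139876-154140125, minus strand: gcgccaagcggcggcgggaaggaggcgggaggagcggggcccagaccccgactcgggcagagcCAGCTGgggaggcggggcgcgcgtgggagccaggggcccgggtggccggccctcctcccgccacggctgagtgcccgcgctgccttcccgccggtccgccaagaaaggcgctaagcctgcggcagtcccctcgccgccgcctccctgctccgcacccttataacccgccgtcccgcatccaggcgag
Trp73, internal start, chr4:154097174-154097423, minus strand: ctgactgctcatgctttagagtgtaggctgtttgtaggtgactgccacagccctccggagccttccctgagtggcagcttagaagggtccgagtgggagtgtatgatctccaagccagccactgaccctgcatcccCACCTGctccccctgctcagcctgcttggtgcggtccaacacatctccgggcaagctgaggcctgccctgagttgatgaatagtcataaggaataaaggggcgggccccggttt
Lhx1, chr11:84525535-84525784, minus strand: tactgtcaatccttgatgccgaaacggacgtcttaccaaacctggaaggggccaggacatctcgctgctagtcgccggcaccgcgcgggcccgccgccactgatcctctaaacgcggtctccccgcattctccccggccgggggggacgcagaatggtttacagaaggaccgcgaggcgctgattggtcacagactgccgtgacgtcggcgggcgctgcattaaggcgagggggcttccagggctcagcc
Ebf3, chr7:137314446-137314695, minus strand: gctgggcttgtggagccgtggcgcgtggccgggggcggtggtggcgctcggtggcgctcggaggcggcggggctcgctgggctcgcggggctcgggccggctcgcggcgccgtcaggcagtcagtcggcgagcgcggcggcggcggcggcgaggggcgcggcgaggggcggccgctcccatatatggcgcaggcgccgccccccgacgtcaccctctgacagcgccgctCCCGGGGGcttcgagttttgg

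RefSeq windows were at hand for 5 of the 9 genes, those of Trp73, Lhx1, Ebf3, Reln and Ebf1. Both Trp73 windows held 1 CANNTG match and those of Lhx1 and Ebf3 held 0, where 66.2% of 32851 RefSeq mouse windows of the same length hold at least 1. CCCNNGGG, a core of the palindrome for EBF factors, was found 1 time in the Ebf3 window and not in those of Lhx1 and Trp73, where 11.8% of all windows hold it, and 2 times in the window before Reln. TAATTA, a core bound by LIM homeodomain factors, was in none of the windows of these genes, where 4.84% of all windows hold it. Motifs were searched on both strands, and a match or its absence describes these letters alone.

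Hes5 was higher in every NSC library than in any NBN or BP library, while Eomes, the gene of the Tbr2 reporter, was high in BP and lower in NBN than in most NSC. Hes5 ran from 1.02 to 6.30 TPM in NBN, from 1.30 to 6.96 in BP and from 15.505 to 215 in NSC, and Eomes from 6.13 to 93.5 in NBN, from 294 to 656 in BP and from 22.3 to 608 in NSC. NSC libraries also held Neurod6, a gene of excitatory neurons, at 6.84 to 1215 TPM, so neuronal RNA was part of them. Ski itself was at 36.7 to 53.1 TPM in NBN, 17.2 to 37.4 in BP and 23.0 to 50.1 in NSC. The labels do not name the deleted part of Ski, so this gene-level value checks nothing about the knock-out.

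Libraries that stood apart bear on these genes. Summed TPM of 18 genes of the midbrain, hindbrain and diencephalon, a list chosen after the values were seen (among them Irx1, En2, Barhl1, Tal2 and Shox2), was 1.09 to 11.3 with a median of 3.09 in 56 libraries and 26.0 to 1266 in the other 7. The 7 are NBN of E16.5 replicate 3, NBN of E17.5 replicate 4, BP of E16.5 replicate 3, BP of E17.5 replicate 4, NSC of E11.5 replicate 3 and NSC of E12.5 replicates 1 and 2. In NSC of E12.5 the sums of replicates 1 and 2 were 1266 and 391 TPM.

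At E12.5 these 2 NSC libraries differed from the other 2 in most of the Cajal-Retzius cell genes. In NSC replicates 1 to 4 of E12.5, in that order, Lhx1 had 96.7, 55.7, 7.46 and 7.53 TPM. Lhx5 had 107, 59.8, 11.4 and 9.76, and Ebf3 had 175.2, 67.3, 19.2 and 19.5. These LIM homeodomain and EBF genes were far higher in replicates 1 and 2 than in replicates 3 and 4. Trp73 had 3.41, 15.7, 31.0 and 35.7 TPM in the same order, and Calb2 had 7.05, 24.4, 53.3 and 53.4. Those genes were lowest in the library with the highest region gene sum. Ebf1 (54.0, 31.2, 9.85 and 14.6 TPM) and Ndnf (4.38, 4.58, 2.36 and 2.85 TPM) were also higher in replicates 1 and 2. Reln and Ebf2 followed neither order: Reln was highest in replicate 3 (33.0, 36.7, 99.1 and 39.3 TPM), and Ebf2 was highest in replicate 1 and lower in replicate 2 than in replicate 4 (53.7, 21.9, 20.2 and 31.6 TPM). For the 9 genes the differences that use NSC of E12.5 are given again without these libraries where a call or value moved, while the correlations of group means and the values of other gene lists are given with all libraries. The part of the region genes in these results was not tested.

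**Figure D1:**
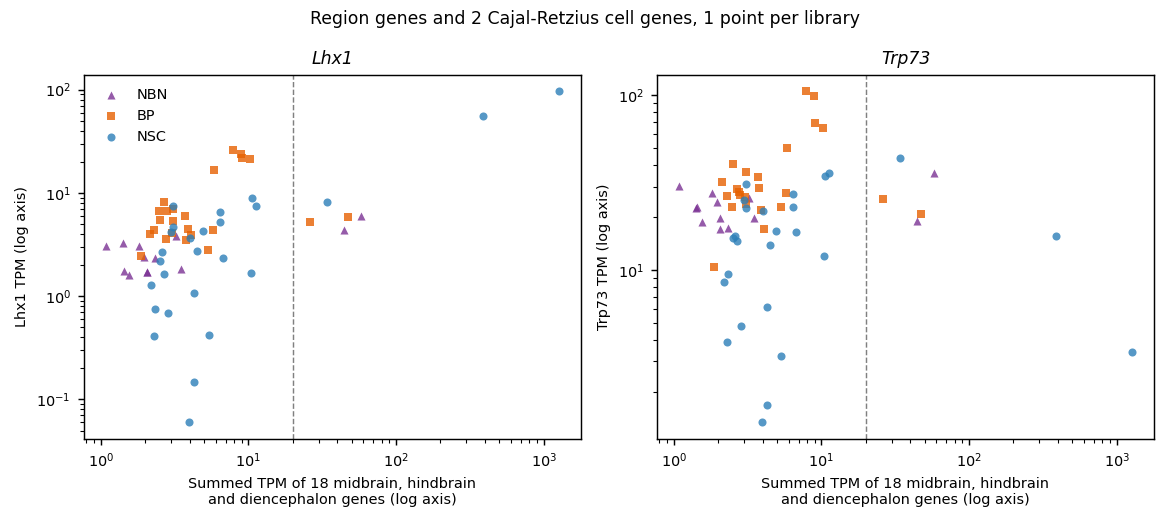
Lhx1 (left) and Trp73 (right) in TPM against the summed TPM of 18 midbrain, hindbrain and diencephalon genes, both on log axes, with 1 point per library (triangles NBN, squares BP, circles NSC). The dashed line is at 20 TPM. The 2 NSC libraries at 391 and 1266 TPM hold the highest Lhx1 values, while Trp73 is at 15.7 and 3.41 TPM in them.

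Reln codes for reelin, the secreted glycoprotein of the marginal zone. It was the most abundant of the 9 genes in NBN, with 139, 117 and 153 TPM at E15.5, 138, 177 and 186 at E16.5, 116, 124, 130.4 and 124 at E17.5 and 180.5, 180.2 and 174 at E18.5. In BP it had 134 and 156 TPM at E12.5, 113, 157 and 129.7 at E13.5, 78.3, 34.8 and 57.4 at E15.5, 147, 97.1 and 83.2 at E16.5, 92.0, 76.4, 117 and 105 at E17.5 and 104, 139.9 and 107 at E18.5. At E14.5 the 6 BP libraries ran from 80.9 to 134 TPM with a median of 112. BP libraries lay between 76.4 and 157 TPM on every other day, and 2 of the 3 libraries of E15.5 were below that range. In NSC Reln had 6.09, 27.1 and 37.2 TPM at E11.5, 33.0, 36.7, 99.1 and 39.3 at E12.5, 73.5, 68.1 and 56.6 at E13.5 and 51.9, 70.3, 82.5 and 105 at E14.5. It had 42.9, 81.3 and 39.3 at E15.5, 116, 80.5 and 62.0 at E16.5, 74.2, 38.7 and 30.2 at E17.5 and 24.8, 5.66 and 4.16 at E18.5. NSC were low on the first and the last day and higher between, and at E18.5 no NSC library reached the lowest BP or NBN library.

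Trp73 codes for p73, a p53 family transcription factor that Cajal-Retzius cells of the hem need to survive. In NBN it had 22.6, 18.8 and 25.8 TPM at E15.5, 17.49, 30.2 and 36.1 at E16.5, 17.2, 19.9, 19.9 and 19.04 at E17.5 and 24.4, 27.7 and 23.0 at E18.5. In BP it had 98.4 and 106 TPM at E12.5, 49.7, 65.3 and 69.6 at E13.5, 27.0, 10.3 and 17.2 at E15.5, 36.5, 29.4 and 25.6 at E16.5, 22.2, 23.1, 27.6 and 21.0 at E17.5 and 28.0, 40.3 and 26.1 at E18.5, and ran from 23.1 to 34.1 TPM with a median of 27.8 at E14.5. The BP libraries of E12.5 held the highest levels of any group, and BP and NBN overlapped on the shared days except E17.5, when every BP library was above every NBN library. In NSC Trp73 had 16.4, 34.5 and 43.9 TPM at E11.5, 27.4, 25.0 and 22.9 at E13.5, 13.9, 15.8, 16.8 and 22.7 at E14.5 and 8.50, 15.3 and 3.86 at E15.5. It had 21.8, 14.6 and 9.46 at E16.5, 12.1, 6.18 and 4.76 at E17.5 and 3.23, 1.70 and 1.35 at E18.5. The 3 NSC libraries of E18.5 were the lowest of all 63.

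Lhx1 and Lhx5 code for LIM homeodomain transcription factors, of which Lhx5 takes part in forming the hem and its Cajal-Retzius cells. In NBN Lhx1 had 3.27, 1.59 and 3.85 TPM at E15.5, 2.35, 3.04 and 6.00 at E16.5, 1.73, 1.85, 1.72 and 4.37 at E17.5 and 2.38, 3.07 and 1.76 at E18.5. In BP it had 23.6 and 25.8 TPM at E12.5, 16.8, 21.3 and 22.0 at E13.5, 6.69, 2.44 and 3.88 at E15.5, 4.46, 2.77, 4.40 and 5.84 at E17.5 and 3.60, 5.41 and 4.10 at E18.5, and ran from 3.99 to 8.10 TPM with a median of 5.72 at E14.5. The level in BP after E13.5 was well below that of E12.5 and E13.5 in every library. In NSC Lhx1 had 2.36, 8.85 and 8.09 TPM at E11.5, 6.55, 4.17 and 5.26 at E13.5, 1.30, 2.18 and 0.413 at E15.5, 1.68, 1.08 and 0.691 at E17.5 and 0.421, 0.149 and 0.0606 at E18.5. At E18.5 every NSC library was below every NBN and BP library. Lhx5 had a higher mean than Lhx1 in each of the 19 groups. It averaged 7.71 ± 0.497 TPM in NBN, 9.14 ± 2.04 in BP and 0.817 ± 0.730 in NSC at E18.5 (SD, n = 3 each).

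Ebf1, Ebf2 and Ebf3 code for EBF transcription factors of early-born neurons. Ebf2, which marks Cajal-Retzius cells of the hem and septum, had the steepest course. In NBN it had 0.870, 0.779 and 3.29 TPM at E16.5, 0.163, 0.464, 0.333 and 2.44 at E17.5 and 0.301, 0.522 and 0.514 at E18.5, and the high libraries of E16.5 and E17.5 were those with the region gene transcripts. In BP it had 99.9 and 73.8 TPM at E12.5, 31.9, 38.7 and 35.2 at E13.5, 2.18, 1.11 and 3.23 at E15.5, 0.783, 0.472 and 2.51 at E16.5, 0.804, 0.597, 0.392 and 2.50 at E17.5 and 0.247, 0.205 and 0.0944 at E18.5, and ran from 3.90 to 12.1 TPM with a median of 6.16 at E14.5. Each group of BP up to E15.5 lay below the group of the day before without overlap. In NSC it had 22.2, 38.9 and 33.8 TPM at E11.5, 53.7, 21.9, 20.2 and 31.6 at E12.5, 11.4, 11.4 and 10.3 at E13.5, 3.38, 1.41, 2.32 and 3.04 at E14.5 and 0.716, 0.460 and 0.228 at E15.5. From E15.5 on no NSC library reached 1 TPM.

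Ebf3 had the highest mean of the EBF genes in every group of BP and NBN. It averaged 87.9 ± 2.07 TPM in BP of E12.5 (n = 2), 16.9 ± 6.37 at E14.5 (n = 6) and 9.91 ± 0.841 at E18.5 (n = 3). In NSC it averaged 23.3 ± 7.56 TPM at E11.5, 4.18 ± 1.13 at E15.5 and 2.10 ± 0.362 at E18.5 (SD, n = 3 each). At E18.5 its NBN libraries had 6.27, 7.19 and 5.44 TPM, between BP with 9.25, 10.9 and 9.62 and NSC with 2.00, 2.50 and 1.80, with no overlap between the cell types. Ebf1 was different at that age, with 1.09, 1.10 and 0.830 TPM in NBN, 2.37, 3.56 and 2.37 in BP and 3.51, 2.78 and 2.22 in NSC. NBN held the lowest Ebf1 of the 3 cell types at E18.5, and BP and NSC overlapped.

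Calb2 codes for calretinin, a calcium-binding protein. In NBN it had 20.04, 21.5 and 24.7 TPM at E15.5, 12.6, 40.8 and 40.8 at E16.5, 32.6, 35.0, 31.1 and 34.4 at E17.5 and 37.4, 49.2 and 57.1 at E18.5. In BP it had 147 and 135.1 TPM at E12.5, 86.8, 123 and 113 at E13.5, 26.7, 22.8 and 30.1 at E15.5, 25.8, 79.6 and 67.1 at E16.5, 80.6, 66.1, 78.1 and 77.7 at E17.5 and 134, 152 and 149 at E18.5, and ran from 11.1 to 37.8 TPM with a median of 23.4 at E14.5. BP were therefore high on the first 2 days and on the last day and low at E14.5 and E15.5. In NSC it averaged 8.53 ± 3.04 TPM at E15.5, 24.4 ± 4.46 at E16.5, 46.4 ± 7.84 at E17.5 and 29.1 ± 13.0 at E18.5 (SD, n = 3 each).

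Ndnf codes for a secreted protein of marginal-zone neurons. In NBN it had 6.55, 7.26 and 8.45 TPM at E15.5, 13.52, 16.9 and 10.4 at E16.5, 15.4, 10.3, 14.1 and 13.48 at E17.5 and 25.9, 24.8 and 23.8 at E18.5. In BP it had 1.13 and 1.02 TPM at E12.5, 0.880, 0.925 and 0.631 at E13.5, 0.594, 0.423 and 0.655 at E15.5, 5.77, 3.28 and 1.16 at E16.5, 6.38, 2.58, 7.58 and 3.92 at E17.5 and 9.72, 12.1 and 11.3 at E18.5, and ran from 0.791 to 1.12 TPM with a median of 0.990 at E14.5. BP were between 0.423 and 1.13 TPM through E15.5, and every later BP library was above that range. In NSC it had 4.54, 6.69 and 1.58 TPM at E11.5, 0.641, 1.04 and 0.698 at E13.5, 6.83, 3.97 and 3.39 at E16.5 and 3.26, 1.26 and 1.71 at E18.5, with no single direction.

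**Figure D2:**
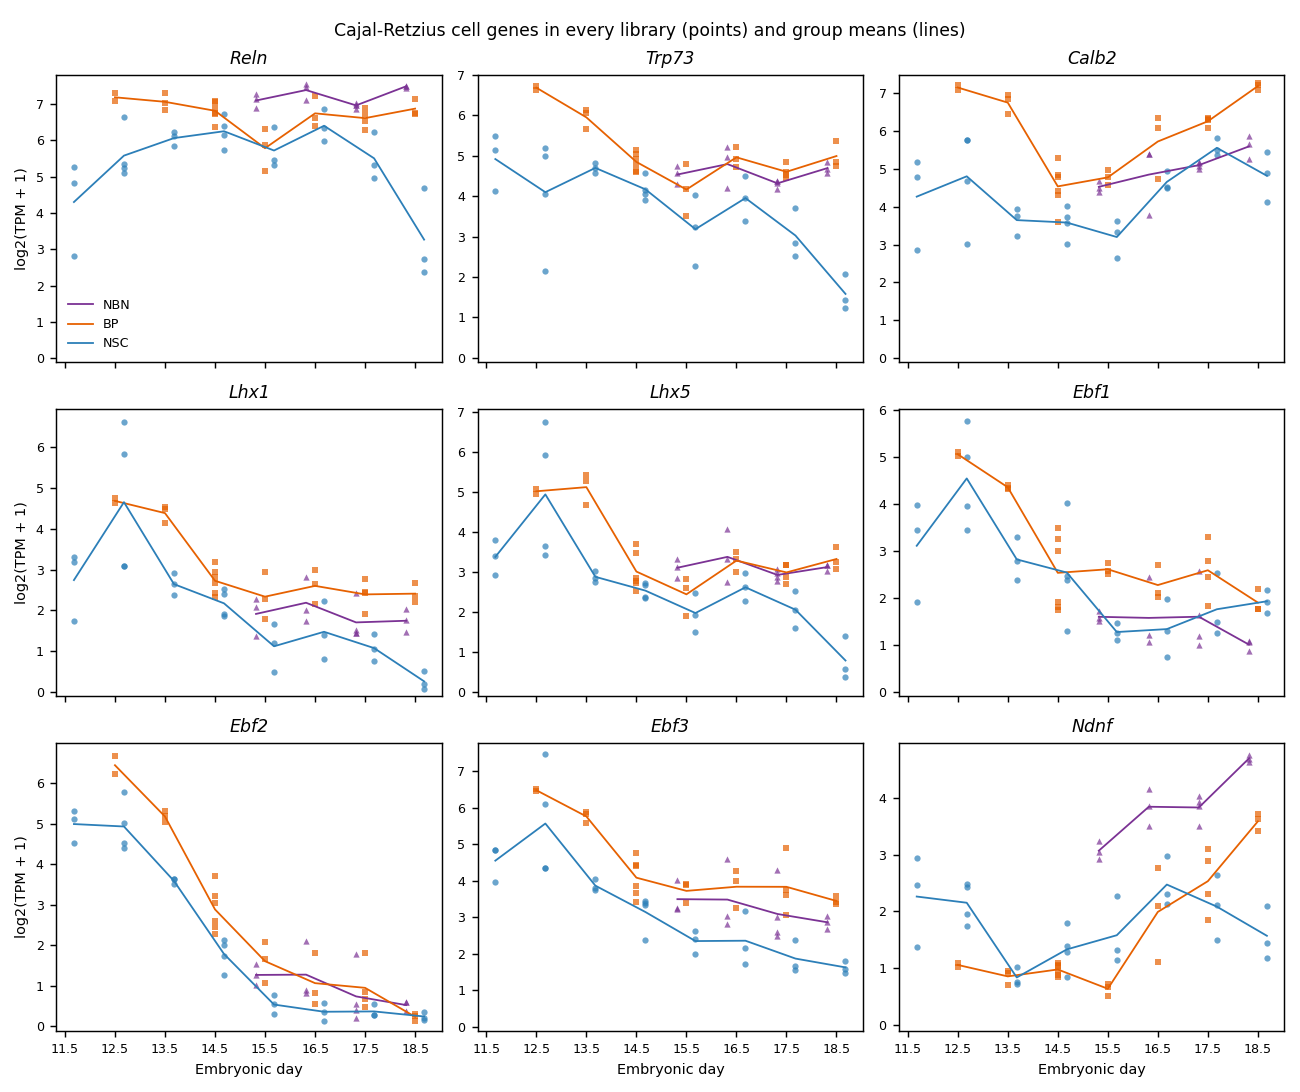
Levels of the 9 genes as log2(TPM + 1) against embryonic day, with 1 point per library (triangles NBN, squares BP, circles NSC) and lines through the group means. Trp73, Lhx1, Lhx5 and the Ebf genes are highest early and fall in BP and NSC, Calb2 in BP is high at both ends, and Ndnf is higher at the end in NBN and BP.

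BP carried more RNA of most of these genes than NSC, which came from the other reporter line. Differences between cell types are given as the mean of the log2(TPM + 1) differences on the shared days, with its standard error (SE), and a gene was called when its size was 1 or more and its adjusted p was under 0.05. Of the 9 genes, 6 were called higher and 0 lower in BP over E12.5 to E18.5, where 0.466% of all tested genes were called higher and 2.56% lower. The called genes were Calb2 (1.73 ± 0.17, adjusted p = 1e-11), Trp73 (1.64 ± 0.16, adjusted p = 1.83e-12), Ebf3 (1.48 ± 0.19, adjusted p = 4.58e-09), Reln (1.18 ± 0.15, adjusted p = 1.08e-08), Lhx1 (1.16 ± 0.19, adjusted p = 1.02e-06) and Lhx5 (1.06 ± 0.16, adjusted p = 4.9e-07), all higher in BP on 7 of 7 days. The days are counted by the sign of the log2 difference alone. At E12.5 the mean TPM of Lhx1 was higher in NSC than in BP (41.9 and 24.7), as was that of Lhx5 (46.9 and 31.3). The median of the 9 genes was 1.16 and that of all tested genes -0.0019. Ebf2 had a difference of 0.94 ± 0.13, Ebf1 of 0.73 ± 0.19 and Ndnf of -0.06 ± 0.12, and none of them was called. Without the 7 libraries high in region genes 6 were again called, with 1.36 for Lhx1 and 1.23 for Lhx5.

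The calls of Lhx1 and Lhx5 between BP and NSC were close to the threshold. Their differences were 1.00 and 0.81 without E18.5, 0.58 and 0.65 with a pseudocount of 5, and 0.77 and 0.93 over E12.5 to E14.5 alone, and neither was called in any of these. Lhx5 was also not called without NSC of E12.5 replicate 3 (0.99) or replicate 4 (0.98). Reln had 0.78 without E18.5 and was not called. Interneuron and radial glia markers ran the other way: summed TPM of 19 interneuron genes was 40.5 to 151 in BP and 182 to 1331 in NSC, and that of 15 radial glia genes 614 to 1000 in BP and 1433 to 8333 in NSC. The 12 basal progenitor genes had a median difference of 0.62, with sums of 1679.9 to 2537 TPM in BP and 648 to 2640 in NSC. Summed TPM of 14 cortical neuron genes was 4976 to 8106 in BP and 1068 to 8047 in NSC, and the part of these genes in the differences was not tested. Further marker sums overlapped between BP and NSC: 14 endothelium and pericyte genes summed to 2.99 to 142 TPM in BP and 4.20 to 98.1 in NSC, 13 meninges and fibroblast genes to 6.74 to 144 in BP and 9.004 to 400.3 in NSC, and 14 microglia and macrophage genes to 4.80 to 26.6 in BP and 3.66 to 374 in NSC. For 9 choroid plexus genes the sums were 3.93 to 193 in BP and 4.10 to 259 in NSC, and for 8 multiciliated cell genes 17.3 to 108 in BP and 25.9 to 99.9 in NSC.

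**Figure D3:**
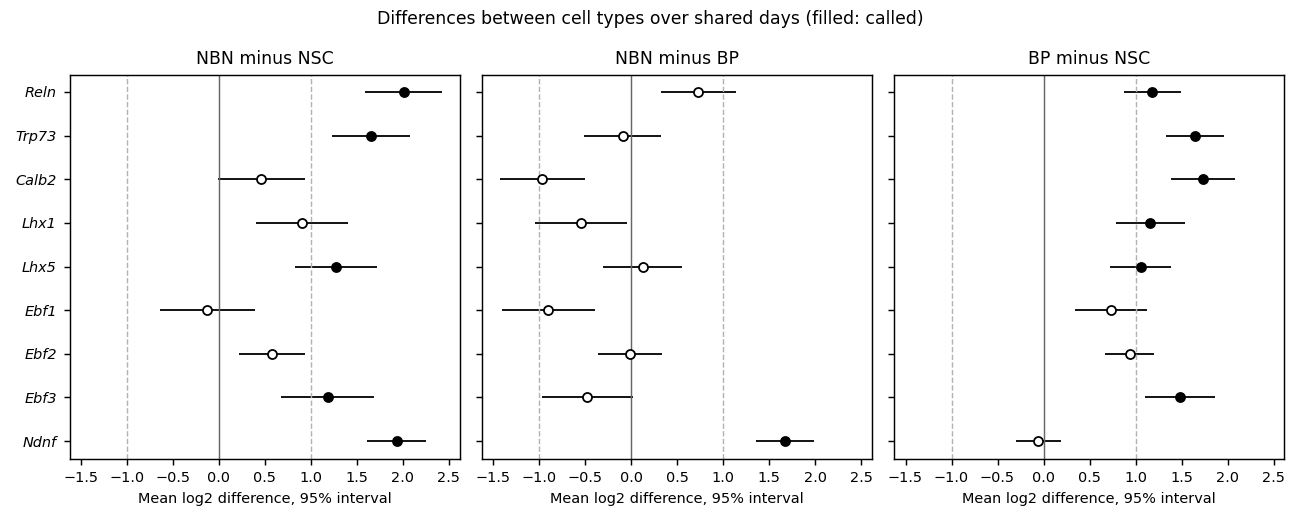
Mean log2 differences with 95% confidence intervals between cell types on shared days, for NBN minus NSC, NBN minus BP and BP minus NSC from left to right, with filled points for called genes and dashed lines at a log2 change of 1 in size. Calb2, Trp73, Ebf3, Reln, Lhx1 and Lhx5 are called between BP and NSC, and only Ndnf is called between NBN and BP (1.67).

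On single days the number of genes called between BP and NSC ran from 0 of 9 at E16.5 to 7 of 9 at E13.5 and at E18.5. The share of all tested genes called at E16.5 is not given here. The median difference of the 9 genes was 0.91 at E12.5, 1.59 at E13.5, 0.56 at E14.5, 1.07 at E15.5, 0.94 at E16.5, 0.93 at E17.5 and 2.15 at E18.5, and no test was made between days. At E13.5, 7 of 9 were called higher in BP, where 3.72% of all tested genes were, with 3.10 ± 0.48 for Calb2, 2.24 ± 0.45 for Lhx5, 1.89 ± 0.51 for Ebf3, 1.74 ± 0.51 for Lhx1 and 1.59 ± 0.36 for Ebf2. Ebf1 (1.54 ± 0.52) lost that call without NSC of E13.5 replicate 1 or 3 or BP of E13.5 replicate 2, and Trp73 (1.25 ± 0.43) without NSC of E13.5 replicate 3 or BP of E13.5 replicate 2 or 3. At E12.5, 4 of 9 were called higher, where 2.93% of all tested genes were, and 1 lower, where 5.77% were. The higher genes were Trp73 (2.59 ± 0.45), Calb2 (2.35 ± 0.50), Reln (1.61 ± 0.45) and Ebf2 (1.51 ± 0.38), of which Reln lost its call without BP of E12.5 replicate 2 and Ebf2 without BP of E12.5 replicate 1. Lhx1 had 0.03 ± 0.54 and Ebf3 0.91 ± 0.54 on that day with all libraries, and 1.60 and 2.13, both called, without the 2 NSC libraries high in region genes. Without them Lhx5 was also called (1.48), Trp73 (1.59), Calb2 (1.38) and Ebf2 (1.72) kept their calls, and Reln (1.19) lost its call. Ndnf had -1.09 ± 0.35 at E12.5 and was called lower in BP, but had -0.79 and was not called without those libraries, nor without BP of E12.5 replicate 1 or 2 or NSC of E12.5 replicate 2 alone. On other days, 1 of 9 was called higher at E14.5 (Ebf2, 1.10 ± 0.28), 1 at E15.5 (Calb2, 1.58 ± 0.48) and 3 at E17.5 (Ebf3, 1.96 ± 0.48, Trp73, 1.58 ± 0.40, and Reln, 1.11 ± 0.39), where 0.355%, 0.256% and 0.821% of all tested genes were. Ebf3 and Trp73 at E17.5 kept their calls without any 1 library, while Ebf2 lost its call without NSC of E14.5 replicate 2 or BP of E14.5 replicate 5, Calb2 without any of 5 of the 6 libraries of E15.5, and Reln without any of 35 libraries. At E18.5, 7 of 9 were called higher in BP, where 0.945% of all tested genes were. The differences were 3.61 ± 0.42 for Reln, 3.41 ± 0.43 for Trp73, 2.53 ± 0.45 for Lhx5, 2.37 ± 0.48 for Calb2, 2.15 ± 0.51 for Lhx1, 2.02 ± 0.33 for Ndnf and 1.82 ± 0.51 for Ebf3, and each kept its call when any 1 library was left out. Ebf1 and Ebf2 had -0.03 ± 0.52 and -0.01 ± 0.36 at E18.5.

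**Figure D4:**
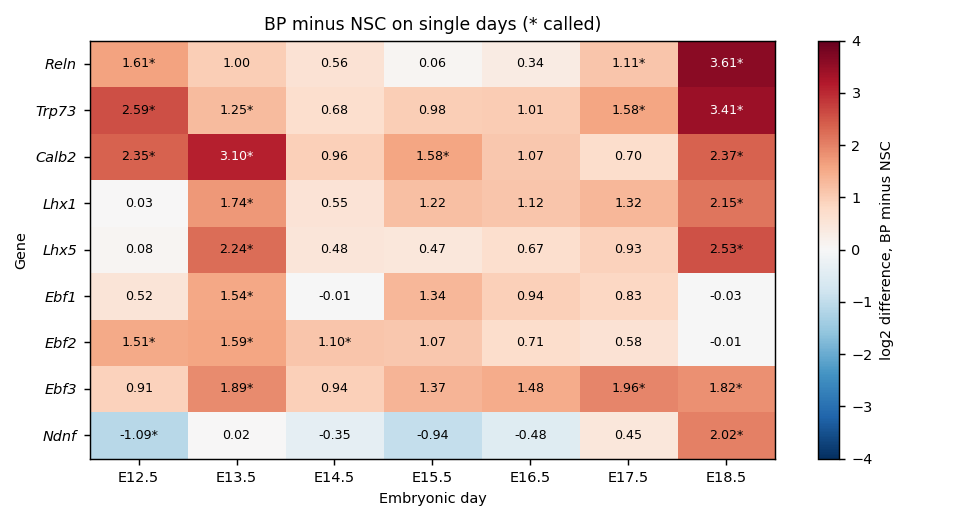
Log2 differences, BP minus NSC, for each of the 9 genes (rows) on each shared day (columns), with an asterisk where a gene was called on that day. The cells at E18.5 reach 3.61 for Reln and 3.41 for Trp73, while Ebf1 and Ebf2 are near 0 there.

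NBN differed from BP in Ndnf alone among the called genes. Over E15.5 to E18.5 Ndnf was higher in NBN by 1.67 ± 0.16 (adjusted p = 5.5e-13, on 4 of 4 days), and 1 of 9 genes called higher and 0 called lower stand against 5.75% and 5.09% of all tested genes. Reln had a difference of 0.73 ± 0.20, Calb2 of -0.97 ± 0.23 and Ebf1 of -0.90 ± 0.25, each with 4 of 4 days in its direction and under the fold threshold. Calb2 passed it without BP of E16.5 replicate 1 (-1.09), NBN of E16.5 replicate 2 (-1.04) or replicate 3 (-1.04), or NBN of E18.5 replicate 3 (-1.003), and Ebf1 without NBN of E16.5 replicate 3 (-1.01). On single days Calb2 was called lower in NBN at E17.5 (-1.16 ± 0.41) and at E18.5 (-1.59 ± 0.48), where 6.8% and 6.2% of all tested genes were, and it kept both calls without any 1 library. Ndnf was called higher on each of the 4 days, with 2.43 ± 0.33 at E15.5, 1.85 ± 0.33 at E16.5, 1.30 ± 0.28 at E17.5 and 1.11 ± 0.33 at E18.5, where 6.85%, 5.23%, 5.5% and 6.36% of all tested genes were. Reln was called higher at E15.5 alone (1.31 ± 0.42), and not without BP of E15.5 replicate 2 or NBN of E15.5 replicate 3. Trp73 (-0.09 ± 0.21), Lhx5 (0.12 ± 0.22) and Ebf2 (-0.01 ± 0.17) had differences smaller than their errors. Markers of other cells differed between NBN and BP too. In NBN limma called 9 of 13 tested microglia and macrophage genes higher (median 1.30), 6 of 14 cortical neuron genes higher (median 0.67) and 12 of 12 basal progenitor genes lower (median -2.44). Over all days summed TPM of the microglia and macrophage genes was 7.25 to 166 in NBN and 4.80 to 26.6 in BP, that of the cortical neuron genes 7935 to 11007 in NBN and 4976 to 8106 in BP, and that of the basal progenitor genes 279 to 623 in NBN and 1679.9 to 2537 in BP. Their part in the differences of the 9 genes was not tested.

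Against NSC, NBN had 5 of 9 genes called higher over the same 4 days, where 2.55% of all tested genes were called higher and 6.11% lower. The differences were 2.01 ± 0.21 for Reln, 1.93 ± 0.16 for Ndnf, 1.65 ± 0.21 for Trp73, 1.27 ± 0.22 for Lhx5 and 1.18 ± 0.25 for Ebf3, with adjusted p from 1.67e-14 to 7.63e-05. Lhx5 had 0.92 without E18.5 and Ebf3 had 0.94 without the 7 libraries high in region genes, and neither was then called. On single days 5 of 9 were called higher at E15.5, 1 at E16.5 and 3 at E17.5, where 3.7%, 0.985% and 0.453% of all tested genes were, and Ndnf was among them each time and kept its call without any 1 library. Of the others, Trp73 (1.35), Reln (1.38), Calb2 (1.33) and Lhx5 (1.13) at E15.5 and Reln (1.46) and Trp73 (1.29) at E17.5 each lost the call when 1 library was left out. At E15.5 this was Trp73 without NSC replicate 3 or NBN replicate 3, Reln without NSC replicate 1 or 3, Calb2 without NSC replicate 1 or NBN replicate 2 or 3, and Lhx5 without any of 29 libraries. At E17.5 it was Reln without NSC replicate 3 and Trp73 without NSC replicate 2 or 3 or NBN replicate 3. At E18.5 alone 6 of 9 were called higher, where 6.65% of all tested genes were, and Reln had 4.22 ± 0.42, Ndnf 3.12 ± 0.33, Trp73 3.11 ± 0.43 and Lhx5 2.33 ± 0.45. Lhx1 (1.48 ± 0.51) lost that call without NBN of E18.5 replicate 2, and Ebf3 (1.23 ± 0.51) without any 1 of the 6 libraries of that day. The interneuron genes summed to 76.1 to 361 TPM in NBN and 182 to 1331 in NSC over all days, and the cortical neuron genes to 7935 to 11007 in NBN and 1068 to 8047 in NSC, and their part in the differences was not tested. NBN minus BP and NBN minus NSC use the same NBN libraries, and BP minus NSC and NBN minus NSC the same NSC libraries.

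Over development 6 of the 9 genes fell in BP and the same 6 fell in NSC. In BP the changes over E12.5 to E18.5, from the slope through the day means, were -6.19 ± 0.30 for Ebf2, -2.85 ± 0.44 for Ebf1, -2.83 ± 0.43 for Ebf3, -2.34 ± 0.43 for Lhx1, -1.94 ± 0.38 for Lhx5 and -1.64 ± 0.36 for Trp73, where 4.39% of all tested genes were called lower. Ndnf rose in BP by 2.56 ± 0.28, where 6.9% of all tested genes were called higher. In NSC the changes over E11.5 to E18.5 were -5.58 ± 0.27 for Ebf2, -3.69 ± 0.38 for Ebf3, -3.32 ± 0.38 for Lhx1, -2.82 ± 0.33 for Lhx5, -2.66 ± 0.32 for Trp73 and -2.33 ± 0.39 for Ebf1, where 8.17% of all tested genes were called lower and 14.8% higher. Without the 7 libraries high in region genes all 6 were again called in NSC, with values between -5.45 for Ebf2 and -1.73 for Ebf1. As the last day minus the first, Ebf1 had -1.18 in NSC and was not called. The median of all genes' NSC changes was 0.09 as deposited and -0.07 after quantile scaling, and each of the 6 kept its direction and its call under both. Markers of other cells changed over the same days. In BP limma called 6 of 14 cortical neuron genes lower and 8 of 13 endothelium and pericyte genes and 6 of 11 meninges and fibroblast genes higher. Summed TPM in BP of the cortical neuron genes was 5544 to 5733 at E18.5 and 6883 to 7193 at E12.5, that of the endothelium and pericyte genes 10.2 to 28.7 at E18.5 and 2.99 to 3.77 at E12.5, and that of the meninges and fibroblast genes 31.0 to 48.0 at E18.5 and 6.74 to 13.2 at E12.5. In NSC it called 7 of 14 cortical neuron genes, 10 of 13 microglia and macrophage genes and 8 of 11 meninges and fibroblast genes higher and 8 of 15 radial glia genes lower, with 5 of the 15 higher. Summed TPM in NSC of the cortical neuron genes was 3157 to 5710 at E18.5 and 1068 to 3052 at E11.5, that of the microglia and macrophage genes 10.9 to 59.7 at E18.5 and 4.53 to 8.12 at E11.5, that of the meninges and fibroblast genes 68.0 to 116 at E18.5 and 9.34 to 12.45 at E11.5, and that of the radial glia genes 4282 to 8333 at E18.5 and 2874 to 3452 at E11.5. Their part in the falls was not tested.

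Reln, Calb2 and Ndnf kept to other courses. Reln changed by -0.41 ± 0.36 in BP and -0.59 ± 0.32 in NSC, with neither called, but over the shorter span without E18.5 its NSC change was 1.05 and was called higher. It was called lower, at -1.02 and -1.01, without NSC of E11.5 replicate 1 or of E18.5 replicate 1. Calb2 had 0.07 ± 0.40 in BP and 0.86 ± 0.36 in NSC. Its BP value was -1.04 over the shorter span without E18.5. Its NSC value passed the threshold without NSC of E11.5 replicate 2 (1.12) or 3 (1.01) or of E18.5 replicate 3 (1.06). Ndnf had -0.0019 ± 0.24 in NSC. In NBN over E15.5 to E18.5 Ndnf alone was called, with a rise of 1.46 ± 0.31 (adjusted p = 0.000445), where 3.3% of all tested genes were called higher and 1.44% lower. Without E18.5 the Ndnf rise was 0.76, a change over a shorter span under the same threshold, and was not called. Summed TPM of 14 microglia and macrophage genes in NBN was 7.25 to 10.4 at E15.5 and 122 to 166 at E18.5, and its part in the Ndnf values was not tested.

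The falls were unevenly spread over the days. Between E13.5 and E14.5 in BP 6 of 9 genes fell, where 0.88% of all tested genes were called lower: Ebf2 (-2.29 ± 0.31), Calb2 (-2.21 ± 0.41), Lhx5 (-2.11 ± 0.39), Ebf1 (-1.83 ± 0.45), Ebf3 (-1.68 ± 0.44) and Lhx1 (-1.66 ± 0.44). Ebf1, Ebf3 and Lhx1 lost that call without BP of E13.5 replicate 2 or replicate 3. Ndnf rose in BP between E15.5 and E16.5 (1.35 ± 0.33), where 0.597% of all tested genes were called higher, and lost that call without BP of E15.5 replicate 2 or 3 or of E16.5 replicate 1 or 2. Ebf2 alone of the 9 fell in BP between E14.5 and E15.5 (-1.28 ± 0.31), where 1.29% of all tested genes were called lower, and in NSC between E13.5 and E14.5 (-1.80 ± 0.34) and between E14.5 and E15.5 (-1.25 ± 0.34), where 0.322% and 0.204% were. The BP fall was lost without BP of E15.5 replicate 1 or 2, and the NSC fall to E15.5 without any of 22 libraries, while the NSC fall to E14.5 held without any 1 library.

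In NSC 4 of 9 genes were called higher at E12.5 than at E11.5, where 3.72% of all tested genes were, and 6 of 9 lower at E13.5 than at E12.5, where 1.67% were. The rises were Lhx1 (1.91), Lhx5 (1.56), Ebf1 (1.44) and Reln (1.28), and each lost its call when 1 library was left out: Lhx1 without NSC of E11.5 replicate 1 or of E12.5 replicate 1, Lhx5 without NSC of E12.5 replicate 1 or 2, Ebf1 without any 1 of these 3, and Reln without NSC of E11.5 replicate 1 (0.54) or of E12.5 replicate 3. The falls were Lhx5 (-2.06), Lhx1 (-2.01), Ebf1 (-1.73), Ebf3 (-1.70), Ebf2 (-1.34) and Ndnf (-1.32). Lhx5 and Ndnf kept that call without any 1 library, Lhx1 and Ebf2 lost it without NSC of E12.5 replicate 1, Ebf1 without NSC of E12.5 replicate 1 or 2 or of E13.5 replicate 1 or 3, and Ebf3 without any 1 of these 4 or NSC of E13.5 replicate 2. Without the 2 NSC libraries high in region genes the rises of Lhx1 (0.34), Lhx5 (0.16) and Ebf1 (0.59) were not called and that of Reln (1.69) was. None of the 6 falls was then called, with values from -1.13 for Ebf2 to -0.44 for Lhx1, while Calb2 (-2.12) was. Between E17.5 and E18.5 in NSC 3 of 9 genes fell, where 1.86% of all tested genes were called lower. Reln changed by -2.24 ± 0.42 (adjusted p = 6.9e-05) and kept its call without any 1 library. Trp73 changed by -1.44 ± 0.43 and lost its call without NSC of E17.5 replicate 1 or of E18.5 replicate 3. Lhx5 changed by -1.27 ± 0.45 and lost it without any of NSC of E17.5 replicates 1 and 2 and of E18.5 replicates 2 and 3.

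Other RNA moved with that last step in NSC. Summed TPM of the radial glia genes was 4282 to 8333 at E18.5 and 1512 to 2246 at E17.5, and that of the cortical neuron genes 3157 to 5710 at E18.5 and 6450 to 7008 at E17.5, with no overlap in either. The part of these shifts in the fall of Reln, Trp73 and Lhx5 was not tested.

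The courses of Reln, Ebf2 and Ndnf differed between BP and NSC. Over E12.5 to E18.5 the change in BP minus the change in NSC was 2.16 ± 0.37 for Ndnf (adjusted p = 1.83e-05), -1.49 ± 0.41 for Ebf2 (adjusted p = 0.00455), and 1.28 ± 0.48 for Reln (adjusted p = 0.0373), where 3.66% of all tested genes were called higher and 6.86% lower. The Reln call was lost without NSC of E12.5 replicate 3, of E13.5 replicate 1, of E17.5 replicate 2 or 3, of E18.5 replicate 2 or 3, or BP of E12.5 replicate 1 or 2, of E13.5 replicate 1, or of E18.5 replicate 2. Without E18.5, and so over a shorter span, Reln had -0.71, Ndnf 0.80 and Ebf2 -1.05, and none of them was called, while Calb2 had -1.96 and was. Trp73 had 0.74 ± 0.49 with all libraries and 1.43, which was called, without the 7 libraries, and 1.16, also called, without NSC of E12.5 replicate 1 alone. Lhx1 (1.30 ± 0.58) and Lhx5 (1.06 ± 0.51) were called without NSC of E12.5 replicate 3, at 1.64 and 1.34, or replicate 4, at 1.64 and 1.38. Without the 2 NSC libraries high in region genes the difference was 0.30 for Lhx1 and 0.16 for Lhx5, and without the 7 libraries 0.24 and 0.11, none of them called. Reln (1.55), Ebf2 (-1.63) and Ndnf (1.96) kept their calls without the 2 libraries, and Reln (1.57), Ebf2 (-1.83) and Ndnf (2.09) without the 7.

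Between NBN and NSC over E15.5 to E18.5 the change differed by 2.70 ± 0.56 for Reln (adjusted p = 0.000889), 1.72 ± 0.57 for Trp73 (adjusted p = 0.0414) and 1.58 ± 0.44 for Ndnf (adjusted p = 0.0136), where 0.854% of all tested genes were called higher and 4.58% lower. Without E18.5, and so over a shorter span, none was called, with 0.08 for Reln, -0.06 for Trp73 and 0.26 for Ndnf. The Trp73 call was also lost without any of NSC of E15.5 replicates 1 and 2, of E17.5 replicates 2 and 3, of E18.5 replicates 2 and 3, NBN of E15.5 replicates 1 to 3, of E16.5 replicate 1, or of E18.5 replicates 1 to 3, and the Ndnf call without NSC of E15.5 replicate 2 (1.27) or of E18.5 replicate 2 (1.41). Between NBN and BP limma called 0 of the 9, where 1.02% of all tested genes were called higher and 1.38% lower. At an unadjusted p under 0.05, 2 were lower in that comparison, Ndnf at -1.36 ± 0.44 and Calb2 at -1.30 ± 0.63, and Ndnf was called without BP of E16.5 replicate 1 (-1.47) or of E17.5 replicate 2 (-1.43), or without NSC of E11.5 replicate 3, a library outside the comparison. The median of all genes was -0.12 in both of these comparisons as deposited, and 0.0061 against BP and 0.04 against NSC after quantile scaling.

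The 9 genes did not share 1 pattern. Across the 19 group means of log2(TPM + 1) Pearson's r over the 36 pairs ran from -0.56 (Ebf1 and Ndnf) to 0.98 (Lhx1 and Ebf3), with a median of 0.50. Lhx1, Lhx5, Ebf1, Ebf2 and Ebf3 were alike, with 0.94 between Lhx1 and Lhx5 and 0.91 between Ebf1 and Ebf2, and Trp73 was closest to Lhx5 (0.84). The group means share days and reporter lines, so these values describe courses. Between libraries of the same group, as deviations from group means, the median was 0.21 over 63 libraries and 0.55 over the 56 without high region genes. Trp73 and Lhx1 had -0.09 over the 63 libraries and 0.80 over the 56, and Trp73 and Reln had 0.71 and 0.78. Pairs of other genes were not measured between libraries in this way, so these values are not shown to be particular to the 9 genes.

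**Figure D5:**
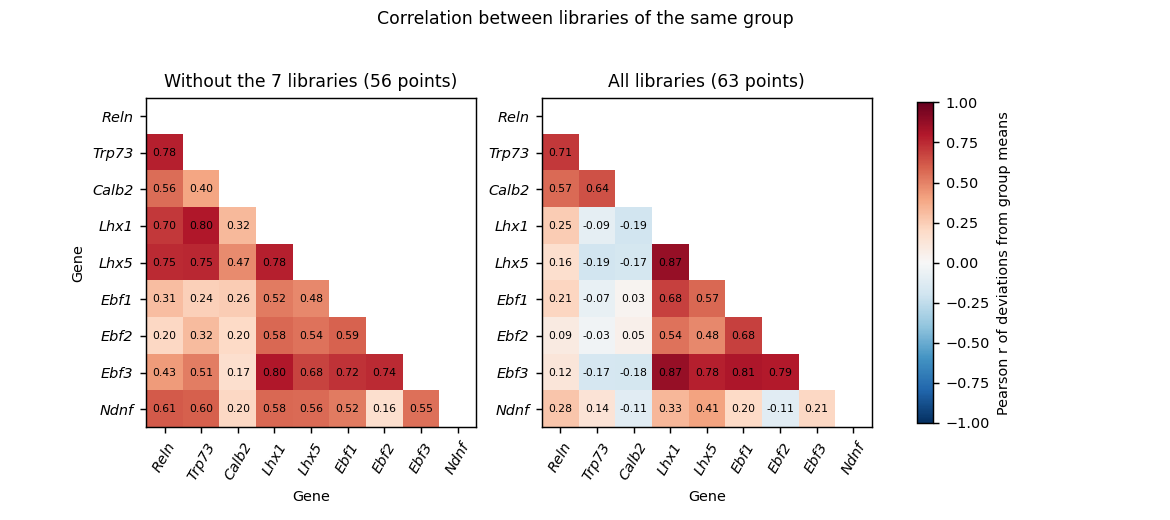
Pearson's r between the 9 genes across libraries as deviations from group means on the log2(TPM + 1) scale, without the 7 libraries high in region genes (left, 56 points) and with all libraries (right, 63 points). Trp73 against Lhx1 is 0.80 on the left and -0.09 on the right, and no pair on the left is below 0.16.

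Ranked by level, neighbouring groups mostly overlapped. Of the 18 neighbouring pairs in the order of the 19 group means, the library ranges did not overlap in 3 for Trp73, Calb2, Lhx1 and Ebf2, in 2 for Lhx5, Ebf1 and Ndnf, in 1 for Ebf3 and in 0 for Reln. For Trp73, BP of E12.5 was first and BP of E13.5 the second, each apart from the next group. For Ndnf, NBN of E18.5 was first and apart from the rest. These counts were not made for other genes, so they are not shown to be unusual.

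The genes with the most similar courses over the 19 group means, among genes reaching a mean of 10 TPM in a group, differed between the 9. Cacna2d2, a calcium channel subunit, was first for Lhx5 (r = 0.96) and for Trp73 (r = 0.92), and Nr2f2 was the second for Trp73 (r = 0.85). Barhl2 was first for Ebf3 (r = 0.96), with Barhl2 and Nhlh2 at 0.94 for Lhx1 after 1500016L03Rik (0.95). Crabp2 was first for Ebf2 (r = 0.98), Uncx for Ebf1 (0.96), Selrc1 for Ndnf (0.92), Ubl5 for Reln (0.86) and Glrx for Calb2 (0.83). These r values rank likeness of course and carry no test.

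Of 15 further genes known from Cajal-Retzius cells, 4 were called higher and 0 lower in BP than in NSC, where 0.466% and 2.56% of all tested genes were, with a median difference of 0.69. They were Nhlh2 (1.5001 ± 0.14), Slc17a6, the vesicular glutamate transporter (1.17 ± 0.13), Barhl2 (1.48 ± 0.18) and Mab21l1 (1.502 ± 0.25). Over development 6 fell and 2 rose in BP, where 4.39% and 6.9% of all tested genes did, with -3.86 ± 0.31 for Ackr3, a scavenger receptor for CXCL12, and 1.06 ± 0.19 for Cxcr4, the signalling receptor for it. In NSC 6 fell and 4 rose, where 8.17% and 14.8% did, with -3.23 ± 0.36 for Barhl2, -3.16 ± 0.30 for Nhlh2 and -2.20 ± 0.19 for Cacna2d2, and 3.89 ± 0.36 for the glutamate receptor gene Grin2b. The median NSC change of the 15 was 0.07, against 0.09 for all tested genes and -2.66 for the 9 genes. Against BP, NBN had 3 higher and 3 lower, where 5.75% and 5.09% of all tested genes were. Against NSC, NBN had 5 higher and 2 lower, where 2.55% and 6.11% were.

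Some genes of the regions that give rise to these cells were called lower over development in both BP and NSC. Of 26 tested, 7 fell in BP over E12.5 to E18.5 and 1 rose, where 4.39% and 6.9% of all tested genes did, with -2.95 ± 0.22 for Gmnc, -3.19 ± 0.49 for Dbx1, a gene of the pallial border and septum, and 2.03 ± 0.21 for Wnt5a. In NSC 15 fell over E11.5 to E18.5, where 8.17% of all tested genes did. The hem genes Rspo1 (-4.62 ± 0.21), Wnt8b (-4.59 ± 0.24) and Wnt3a (-2.17 ± 0.18) and Gmnc (-3.12 ± 0.20) had the smallest adjusted p among those that fell in NSC. The median NSC change was -1.64 over the list and 0.09 over all tested genes.

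Among the receptors and transducers of reelin, Dab1 and Vldlr were higher and Lrp8 lower in NBN than in BP. Of 38 genes tested 5 were called higher and 3 lower in NBN, where 5.75% and 5.09% of all tested genes were, so the share lower was near that of all genes. Dab1, the adaptor that reelin receptors need, was higher by 2.95 ± 0.13, and it ran from 188 to 347 TPM in NBN, from 21.3 to 140 in BP and from 36.2 to 192 in NSC. Adamts3, a protease that cleaves reelin, was higher by 2.15 ± 0.17 and Mapt by 2.02 ± 0.22. Of the pair of reelin receptors, Vldlr was higher in NBN by 1.66 ± 0.15, and Lrp8 (ApoER2) was lower by 1.07 on the log2 scale (-1.07 ± 0.12). Between BP and NSC Dab1 was the single gene called, lower in BP (-1.11 ± 0.10). Over development 3 rose in BP, Adamts2, another protease of reelin (2.42 ± 0.17), Lrp8 (1.94 ± 0.22) and Pik3r1 (1.18 ± 0.29), and 0 fell, where 6.9% and 4.39% of all tested genes rose and fell. In NSC 11 of the 38 rose and 2 fell, where 14.8% and 8.17% of all tested genes did, with 2.35 ± 0.15 for Adamts2, 1.97 ± 0.19 for Lrp8 and 1.87 ± 0.21 for Dab1.

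Partners and relatives of the EBF and LIM factors were called in both directions. Of 18 genes tested, 1 was called higher and 2 lower in BP than in NSC, where 0.466% and 2.56% of all tested genes were: Lhx9 (1.502 ± 0.16), a LIM homeodomain factor, and Lhx6 (-2.97 ± 0.18), a factor of interneurons, with the LIM cofactor Ldb2 (-1.06 ± 0.14). Between NBN and BP 3 were higher and 3 lower, where 5.75% and 5.09% of all tested genes were, among them Ldb2 (3.69 ± 0.19) and Lhx2 (-1.72 ± 0.11). In NSC 3 rose and 5 fell over development, where 14.8% and 8.17% of all tested genes did, with -4.01 ± 0.33 for Lhx9 and -1.65 ± 0.13 for Zfp423, a zinc finger protein that binds EBF factors. Zfp521, its relative, fell in NBN by 3.43 on the log2 scale (-3.43 ± 0.25).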

How the data were processed

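RNA of the sorted cells was sequenced as single reads of 50 bases from TruSeq libraries, per the labels' protocols. The authors deposited TPM, transcripts per 1000000, for 23078 genes in each library, and the submitters' processing notes name kallisto 0.43.0, GRCm38.p2 and mm10. The columns sum to about 1000000, so read depth is unknown and no counting interval is given. The labels do not say that replicates of a group came from separate embryos, so p-values measure the spread between these libraries.

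A gene was kept where 3 or more libraries had 1 TPM or more, and log2(TPM + 1) was fitted with limma 3.58.1 (R 4.3.3), with 1 mean per group over all 63 libraries and a mean-variance trend. This scale understates the change of low genes. Benjamini-Hochberg adjustment ran over the 15231 genes, and a call needed a log2 change of 1 or more either way with an adjusted p below 0.05. A slope is the change over the whole span of days. Slopes without E18.5 are changes over a shorter span, held to the same threshold, so their size is not on the scale of the main values. The procedure was tested on simulated data for the BP minus NSC difference alone, and not for slopes, single days or steps between days. Python 3.11.15 with pandas 2.3.3, numpy 2.4.6 and matplotlib 3.10.9 did the rest.

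The 9 genes and the lists were chosen with earlier results of these data known, and the region gene list after seeing the values. All 9 genes were described. From other lists the text took genes among the 4 with the smallest adjusted p in each direction, and a few more (Lrp8 and Dab1 in NSC, Dbx1, Mab21l1 and others) were named after their values were seen. By likeness, the 3 genes with the highest Pearson's r were taken for each of the 9, and the text gives the first and some of the next. Alternatives changed the pseudocount, filter, scaling, weights, days, libraries and replicate block. A result for 1 gene of the source region list is not reported here.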

Additional observations from a re-analysis of the deposited data

Results flagged for a closer look

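In groups of 4 to 6 libraries, 1 library stood far from the others of its group in 4 of 45 cases tested, where chance gives about 1 in 20. Reln was at 99.1 TPM in NSC of E12.5 replicate 3, above the other libraries of that group. Lhx1 was at 4.37 TPM and Ebf2 at 2.44 TPM in NBN of E17.5 replicate 4, a library with 44.3 TPM of region genes. Ebf3 was at 4.23 TPM in NSC of E14.5 replicate 2, below the others.

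The change over days differed between cell types, tested as the difference of slopes, for the following genes. BP minus NSC gave 2.16 for Ndnf, -1.49 for Ebf2 and 1.28 for Reln on the log2 scale. NBN minus NSC gave 2.70 for Reln, 1.72 for Trp73 and 1.58 for Ndnf.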

How the results depend on the processing

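The TPM values set the limits: depth is not known, groups hold 2 to 6 libraries, and low genes such as Ebf2 after E15.5 are compressed by the pseudocount. Of 1044 values of the 9 genes under the other settings, 952 kept direction and side of the threshold, 26 lost a call, 31 gained one and 35 turned. Leaving out 1 library gave 5013, 27, 18 and 45 of 5103. The cause was not tested for any change named here. Counts are of the 9 genes unless all genes are named. For slopes and differences over shared days, a count of all genes that is not named stayed within a factor of 1.5 of the main one.

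Without E18.5, 1 gene was called for the slope difference BP minus NSC. For the NBN slope and the slope difference NBN minus NSC 0 were called. On single days 30 calls were made, against 46 with all days. The 46 include the calls at E18.5 itself, which this setting leaves out. Those were 7 for BP minus NSC, 6 for NBN minus NSC, and 1 higher and 1 lower for NBN minus BP. The smaller count is therefore mostly the absence of that day. Of all genes, 2453, 429, 143 and 19 were called for the slope difference BP minus NSC, the NBN slope, and the slope differences NBN minus BP and NBN minus NSC. Values that turned were Calb2 -1.04 for the BP slope, Reln 1.05 and Ndnf 0.18 for the NSC slope, and Ebf1 0.14 for NBN minus NSC. For the NBN slope they were Ebf1 0.0018, Reln -0.13 and Trp73 -0.22. For the slope difference BP minus NSC they were Ebf1 0.16, Lhx5 -0.066, Reln -0.71 and Trp73 -0.78, and for NBN minus NSC Lhx1 -0.16, Lhx5 -0.26 and Trp73 -0.061.

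With a pseudocount of 5, 3 genes were called for NBN minus NSC. Of all genes, 195 were called for BP minus NSC, 870.0 for NBN minus BP, 605 for NBN minus NSC, 316, 834 and 2132 for the NBN, BP and NSC slopes, and 793, 223 and 443 for the slope differences BP minus NSC, NBN minus BP and NBN minus NSC. Ndnf BP minus NSC was 0.035, the Trp73 NBN slope -0.0015 and the Ebf3 slope difference NBN minus NSC -0.077. With a pseudocount of 0.1, 2 genes were called for NBN minus BP, 2 for the NBN slope and 1 for the slope difference NBN minus BP, and of all genes 897 for BP minus NSC and 2150.0 for NBN minus NSC. Ebf1 had -0.15 for the slope difference NBN minus BP, Ebf2 0.070 for NBN minus BP and Ndnf 0.066 for the NSC slope.

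With library weights 6, 2 and 5 genes were called for the slope differences BP minus NSC, NBN minus BP and NBN minus NSC, and 663 and 2103 of all genes for the last pair. Ebf1 had 0.015 for the slope difference BP minus NSC and 0.0019 for NBN minus NSC, Ebf3 -0.14 for the slope difference NBN minus NSC and Trp73 -0.069 for the NBN slope. With a mean of at least 5 TPM, 1054, 391, 196 and 433 of all genes were called for the slope difference BP minus NSC, the NBN slope, and the slope differences NBN minus BP and NBN minus NSC. Over E12.5 to E14.5 alone 919 of all genes were called for BP minus NSC.

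Quantile scaling gave 2 calls for the NBN slope, with Trp73 -0.0025, and Ndnf 0.014 for BP minus NSC. Median-of-ratios scaling gave Calb2 -0.044 for the BP slope, Ebf2 0.0085 for NBN minus BP and Trp73 -0.027 for the NBN slope. Fits to the libraries of the contrast alone gave 2 calls for the NBN slope, and the last day minus the first gave Lhx5 0.017 for the NBN slope. Without the 2 NSC libraries, Ebf3 had -0.053 for the slope difference BP minus NSC and Ndnf 0.12 for the NSC slope. Without the 7 libraries, a setting chosen like the last after seeing the data, 2 genes were called for the NBN slope and 1 for the slope difference NBN minus BP, Ebf3 had -0.25 for the slope difference BP minus NSC and Ndnf 0.061 for BP minus NSC.

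Leaving out 1 library at a time gave 1 to 3 calls for NBN minus BP, 2 to 5, 0 to 1 and 1 to 3 for the slope differences BP minus NSC, NBN minus BP and NBN minus NSC, and 514 to 1400.0 of all genes for the last. Values spanned -0.11 to 0.0069 for Ndnf BP minus NSC, -0.12 to 0.080 for Ebf2 NBN minus BP, -0.26 to 0.20 for the Ndnf NSC slope, -0.10 to 0.094 for the Trp73 NBN slope, -0.079 to 0.15 for Ebf1 in the slope difference NBN minus BP and -0.022 to 0.34 for Ebf3 in NBN minus NSC.

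Replicate numbers were not treated as pairs, since not every pair of same-numbered libraries deviated together beyond r = 0.1. In NBN and BP 12 of 13 pairs did (lowest -0.15, median 0.37), and 11 were closest to their own number, a hint from the data that these numbers pair. In BP and NSC 7 of 21 did, and in NBN and NSC 6 of 12. With the replicate number as a block 4, 1 and 5 genes were called for BP minus NSC, NBN minus BP and NBN minus NSC, 1, 7 and 6 for the NBN, BP and NSC slopes, and 2, 0 and 3 for the slope differences, and Trp73 had -0.031 for the NBN slope. The block took the calls of Lhx1 (0.90) and Lhx5 (0.80) for BP minus NSC and of Reln (1.26) for the slope difference. It changed no call of the 9 genes for NBN minus BP. For all genes the block kept each count within a factor of 1.5 of the main fit.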
